A study of Caenorhabditis elegans with 2 samples.

Results

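The nuclear hormone receptor genes were taken as all protein-coding genes of the *Caenorhabditis elegans* annotation whose symbol starts with nhr-, which gave 269 of 19973 protein-coding genes. A region of LIN-39 ChIP-seq enrichment was given to a gene when its summit lay from 2000 bp upstream of the gene's 5′ end to its 3′ end. Of the 269 receptor genes, 1 had a peak past the authors' reproducibility threshold, an intronic peak in *nhr-19*, against 0.868% of the 19704 other protein-coding genes. At least 1 region of the pooled candidate list lay in the window of 202 receptor genes (75.1%), against 72% of the other genes, and the family as a whole lay near that background. Regions of the 1000 highest pooled signals lay in the windows of 5 receptor genes, *nhr-19*, *nhr-230*, *nhr-26*, *nhr-27* and *nhr-37*, which is 1.86% of the family against 4.75% of the other genes.

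Nuclear hormone receptors are transcription factors that bind DNA through zinc fingers and, in many cases, change their activity when a small lipophilic ligand enters their ligand-binding domain. The worm family is far larger than that of flies or mammals, and most of its members descend from an ancestor related to HNF4. Members with known roles act in fat and nutrient metabolism, moulting, toxin and pathogen responses and the development of particular tissues. LIN-39 is a Hox homeodomain protein of the worm mid-body, known for its roles in vulval precursor cells, ventral cord neurons and postembryonic mesoderm.

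The 2 samples were biological replicates of 1 group, so there was no contrast between conditions. Both came from whole L4 larvae, of mixed sex, of strain OP18, genotype unc-119(ed3) III; wgIs18, in which the transgene expresses LIN-39 tagged with eGFP. All animals therefore carried the *unc-119* mutation and the tagged protein, and a whole-animal profile cannot separate a site used in few cells from a weak site used in many. The pooled list and each replicate's list held 30000 regions on genome build ce11, 344 bp wide in the pooled and replicate 1 lists and 350 bp wide in that of replicate 2, and the thresholded list held 163 peaks. A list of this length holds background as well as peaks, the files gave no read counts, and the depth of each replicate is unknown. The control was common to the calls of both replicates, so they share its errors. Signals were used as ranks within their own list, with rank 1 the highest, and as relative signal, the ratio to the median signal of that list. Shares of genes carry 95% Wilson intervals, which cover counting error only, since neighbouring genes share regions and are not replicates.

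The pooled regions that place *nhr-19*, *nhr-26*, *nhr-27* and *nhr-37* within the top 1000 are shown as 201 bp of ce11 centred on the summit, plus strand, 5′ to 3′, because they are among the strongest LIN-39 regions of the family. Capitals mark matches on either strand to 4 patterns, the receptor core AGGTCA, the repeat GAGAGA, the Hox-PBC core TGATNNAT and the homeodomain core TAATTA.

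*nhr-19*, chrII:9603506-9603706: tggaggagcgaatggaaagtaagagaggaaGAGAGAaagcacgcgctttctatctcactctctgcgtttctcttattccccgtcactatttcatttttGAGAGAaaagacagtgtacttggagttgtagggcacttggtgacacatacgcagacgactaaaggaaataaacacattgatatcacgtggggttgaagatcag

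*nhr-26*, chrX:12696437-12696637: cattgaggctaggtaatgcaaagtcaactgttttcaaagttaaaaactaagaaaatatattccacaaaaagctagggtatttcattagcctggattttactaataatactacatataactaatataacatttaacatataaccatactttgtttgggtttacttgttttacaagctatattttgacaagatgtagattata

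*nhr-27*, chrX:12724845-12725045: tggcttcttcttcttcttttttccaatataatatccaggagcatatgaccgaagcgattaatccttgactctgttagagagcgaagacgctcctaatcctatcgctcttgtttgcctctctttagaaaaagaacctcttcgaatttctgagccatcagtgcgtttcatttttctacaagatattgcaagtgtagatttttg

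*nhr-37*, chrV:6621375-6621575: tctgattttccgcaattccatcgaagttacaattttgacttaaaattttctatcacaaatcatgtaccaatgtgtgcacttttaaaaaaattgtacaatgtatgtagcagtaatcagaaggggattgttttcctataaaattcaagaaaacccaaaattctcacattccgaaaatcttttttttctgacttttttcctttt

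Of these 4 sequences, only that of *nhr-19* had a match, and it held 2 copies of GAGAGA and none of the other 3 patterns. The *nhr-19* sequence was also the richest of the 4 in G and C, at 43.8%, against 38.8% for *nhr-27*, 29.4% for *nhr-37* and 26.9% for *nhr-26*. The median over the 434 distinct pooled regions in receptor gene windows was 32.8%, and it was 42.3% over the 163 thresholded peaks.

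The thresholded peak lay at chrII:9603434-9603777 in an intron of *nhr-19* (WBGene00003618, chrII:9598180-9605526, minus strand), 1920 bp inside the gene from its 5′ end, and in no other gene's window. Its pooled signal was 44.9, which was 2.68 times the list median and ranked 93. The same region ranked 120 in replicate 1, with a relative signal of 2.40, and 449 in replicate 2, with a relative signal of 2.01, for a mean of 2.21 ± 0.280 (SD, n = 2). Both replicates thus placed it within their top 1000, and no other receptor gene had the same region that high in both. The 163 thresholded peaks had pooled signals from 39.2 to 190.5 with a median of 47.3, so the *nhr-19* peak lay below the median of the called peaks. The remaining pooled regions of the *nhr-19* window were far weaker, at ranks 3526, 15366 and 21230. Replicate 1 gave 5 regions in the window and replicate 2 gave 7, and the second pooled region had neighbours at rank 8668 in replicate 1 and 3539 in replicate 2.

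The other 4 receptor genes of the pooled top 1000 each had that region in the top 1000 of 1 replicate only. For *nhr-230* (WBGene00012446, chrV:18846780-18852729, plus strand), an intronic region ranked 304 in the pooled list. It ranked 469 in replicate 1 and 2525 in replicate 2, with a mean relative signal of 1.72 ± 0.306 (SD, n = 2). For *nhr-26* (WBGene00011568, chrX:12695229-12700465, minus strand), the intronic region chrX:12696365-12696708 ranked 555 in the pooled list, 3336 in replicate 1 and 771 in replicate 2. Its relative signal was 1.43 in replicate 1 and 1.85 in replicate 2. For *nhr-37* (WBGene00018412, chrV:6622194-6624799, plus strand), the region chrV:6621303-6621646 lay 719 bp upstream of the 5′ end, the only upstream region among the strongest regions of these 5 genes. It ranked 798 in the pooled list, 4404 in replicate 1 and 745 in replicate 2, with relative signals of 1.36 and 1.86. Replicate 2 was the higher for *nhr-26* and *nhr-37* and replicate 1 for *nhr-230*.

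*nhr-27* (WBGene00008901, chrX:12705563-12808318, minus strand) had the longest window of the family, 104756 bp, against a family median of 4309 bp. It held 49 pooled summits, 46 in replicate 1 and 44 in replicate 2. Its density of 0.468 summits per kb of window compared with 0.315 over the family (0.303 without *nhr-27*) and 0.293 over the other genes. On chromosome X alone, the density was 0.459 over receptor genes, *nhr-27* included, and 0.355 over other genes. A window of this length meets any rank threshold more easily. Its strongest region, chrX:12724773-12725116, was intronic and 83373 bp from the gene's 5′ end, and its summit also lay in the window of *rgs-2*. The nearest 5′ end was that of *pgp-12*, 6862 bp away. The region ranked 625 in the pooled list and 459 in replicate 2, and no replicate 1 region matched it. A second intronic region of the gene ranked 919 in the pooled list, and a replicate 1 region within 200 bp of it ranked 362, the highest of *nhr-27* in that replicate.

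The 10 receptor genes that followed had pooled ranks from 1101 to 1770, and in most of them too the replicates placed the same region far apart. *nhr-173* ranked 1101, with the region at 10338 in replicate 1 and 797 in replicate 2. *nhr-34* ranked 1176, with 1365 in replicate 1 and 11345 in replicate 2. For *nhr-88* the pooled rank of 1458 rested on replicate 2, where the region, in an intron 110 bp from the 5′ end, ranked 104, the highest of any receptor gene in that list. Replicate 1 had no matching region, and its strongest region in the *nhr-88* window ranked 18348. The gap was smaller for *nhr-137*, ranked 1413, at 4779 in replicate 1 and 7842 in replicate 2. It was also smaller for *nhr-108*, ranked 1708, at 4843 and 3013, but that region lay in a coding exon 6 bp from the 5′ end of a neighbouring gene, F35E8.13. The remaining genes of the 10 were *nhr-187*, *nhr-10*, *nhr-66*, *nhr-43* and *nhr-198*, at pooled ranks of 1485, 1623, 1624, 1763 and 1770. Among these, *nhr-10*, an activator of the propionate shunt, had its region 186 bp upstream, and *nhr-66*, a partner of NHR-49 in lipid metabolism, had its region in an intron 4446 bp inside the gene.

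**Figure D1:**
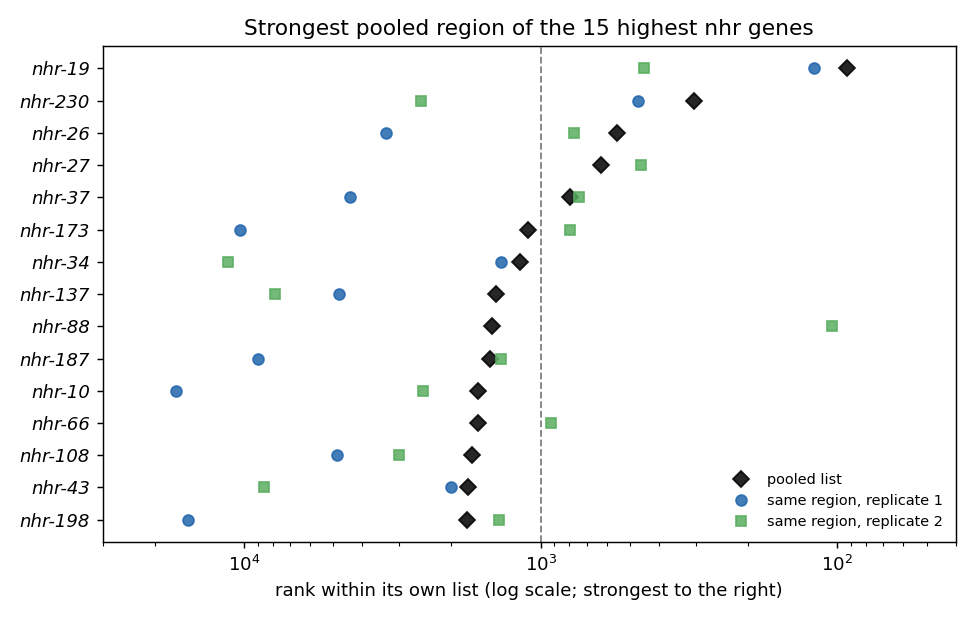
Rank of the strongest pooled region of the 15 highest receptor genes (horizontal log axis, strongest to the right), with the rank of the same region in each replicate where a summit within 200 bp matched it. The dashed line is rank 1000, and *nhr-19* is the only gene with all 3 symbols to its right.

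Each replicate taken alone put a different set of receptor genes in its top 1000. In replicate 1 there were 11 such genes (4.09%, against 4.66% of the other genes), and in replicate 2 there were 10 (3.72%, against 4.68%). The genes in both sets were *nhr-19*, *nhr-27* and *nhr-135*, the last 2 through different regions in the replicates, which is 1.12% of the family (interval 0.380 to 3.23%) against 1.22% of the other genes. Counting only the same region in both replicates left *nhr-19*, 0.372% of the family against 0.792% of the other genes. For *nhr-135* the replicate 1 region, at rank 278, had its summit 504 bp upstream of the 5′ end, and the replicate 2 region, at rank 650, had its summit 1021 bp upstream. The strongest pooled region of *nhr-135* lay 1128 bp upstream and ranked 3567. *nhr-82*, named after its values were seen, ranked 458 in replicate 1 and had no region in the pooled list or in replicate 2.

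Among regions that both replicates shared in receptor gene windows, the ranks in the 2 replicates were barely related. Spearman's rho over the 131 shared regions was 0.0689, against 0.131 over 6914 shared regions in other genes' windows. These are correlations across regions of the same libraries and control, given as a description. Of the replicate 1 regions in receptor windows, 30.7% had a match in replicate 2, against 28.7% in other genes' windows. The strongest pooled region was found in both replicates for 86 of the 202 receptor genes with a pooled region (42.6%, against 39.3% of other genes with a pooled region). It was found in 1 replicate for 106 and in neither for 10. It ranked in the top 5000 of both replicates for 6 genes (2.97%, against 4.18% of other genes with a pooled region), *nhr-19*, *nhr-230*, *nhr-26*, *nhr-37*, *nhr-108* and *nhr-93*, the last of which was named after its values were seen.

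Across the family, the shares of genes with a region followed those of the other genes, apart from fewer top regions in the pooled list. The share with any pooled region had an interval of 69.6 to 79.9%. The top 5000 regions reached 51 receptor genes, 19.0% (interval 14.7 to 24.1%), against 20.1% of the other genes. For the top 1000 the interval was 0.796 to 4.28%, which did not reach the 4.75% of the other genes, whereas for the thresholded list it was 0.0657 to 2.08% and included the 0.868% of the other genes. Ranked by the deposited q column in place of the signal, the pooled top 1000 reached 4.46% of receptor genes and 4.83% of other genes. Given to the nearest 5′ end within 5000 bp in place of the windows, it reached 3.72% and 4.14%. The lower share by signal was also not matched in the lists of the replicates, where the shares given above lay closer to those of the other genes. Among 63 homeobox genes of the ceh class, 6 had a pooled top 1000 region (9.52%) and 2 a thresholded peak, and among 156 collagen genes of the col family 4 (2.56%) and 0 did.

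**Figure D2:**
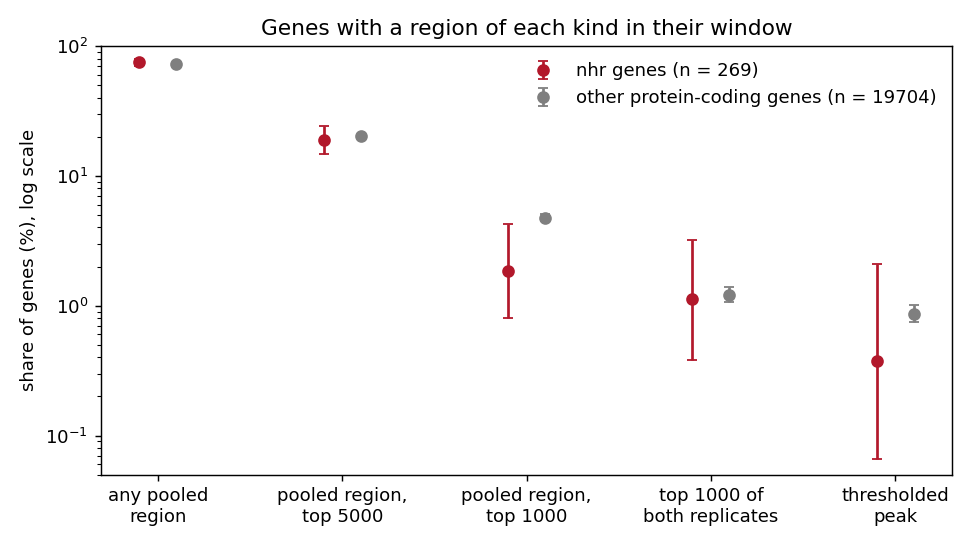
Share of receptor genes (red, n = 269) and of other protein-coding genes (grey, n = 19704) with a region of each kind in the window, on a log axis, with 95% Wilson intervals. The red interval lies below the grey point for the pooled top 1000 and holds it for the other 4 kinds.

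Longer windows held more summits. The number of pooled summits per window ran from 0 for 67 genes and 1 for 93 genes to 8 for *nhr-1*, *nhr-34* and *nhr-66*, 9 for *nhr-40* and 49 for *nhr-27*, and its Spearman's rho with window length was 0.408 over the 269 genes. When genes were split at the quartiles of the family's window lengths, 3813, 4309 and 5457 bp, the share of receptor genes with a pooled region was 65.7%, 73.1%, 71.6% and 89.7% from the shortest class to the longest, where other genes of the same lengths had 60.5%, 70.2%, 76.4% and 89.0%. Members were thus above other genes in 3 classes and below them in the other. The pooled top 1000 regions reached 4 of 68 receptor genes in the longest class (5.88%, against 8.83% of other genes) and 1 of 67 in the next class (1.49%, against 4.51%). They reached 0 of 67 in each of the other 2, where other genes had 3.45% and, in the shortest class, 2.72%. In every class the interval of the receptor genes included the share of the other genes.

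The regions in receptor windows were of slightly lower rank than those elsewhere. The 434 distinct pooled regions had a median percentile of 47.4, where 100 is the top of the list, against 49.6 for regions in other genes' windows. In the replicate lists the medians were 46.6 against 50.04 and 45.7 against 49.9. Of the 434 regions, 6 were in the top 1000 (1.38%, against 3.29%). The gap was smaller in the replicate lists, at 2.31% against 3.24% in replicate 1 and 2.95% against 3.26% in replicate 2. The strongest region per gene had a median percentile of 63.9 over the 202 genes, with a range of 0.477 to 99.7, against 65.96 for other genes.

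Within the windows, the gaps to other genes differed by place and by list. Introns of receptor genes held 200 of the 461 pairs of a summit and a receptor window (43.4%, against 34.7% in other genes), at 0.382 per kb against 0.307. Without *nhr-27* it was 153 of 412 pairs (37.1%), at 0.362 per kb. Upstream sequence held 160 pairs, at 0.297 per kb against 0.306, and coding exons held 73, at 0.226 per kb against 0.236. In the 500 bp before the 5′ end, the bin with the largest gap in the pooled list, there were 29 pooled summits, 0.216 per kb (exact 95% Poisson interval 0.144 to 0.310), against 0.343 per kb for other genes. That interval also covers counting error only, and this measure was chosen after the values had been seen. The next 500 bp upstream held 43 summits, 0.320 per kb against 0.300, and the 500 bp after the 5′ end held 33, 0.245 per kb against 0.265. Replicate 2 gave a like gap before the 5′ end, 0.208 against 0.340 per kb, and replicate 1 a smaller gap, 0.283 against 0.328. In both replicates the gap was larger, and in the other direction, from 500 to 1000 bp after the 5′ end. There replicate 2 had 54 summits, 0.406 against 0.269 per kb, and replicate 1 had 45, 0.338 against 0.289, while the pooled list had 44, 0.331 against 0.281. Split by chromosome, the 500 bp before the 5′ end held 15 pooled summits away from chromosome V, 0.294 per kb against 0.341. On chromosome V the same 500 bp held 14 summits, 0.168 per kb against 0.349.

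**Figure D3:**
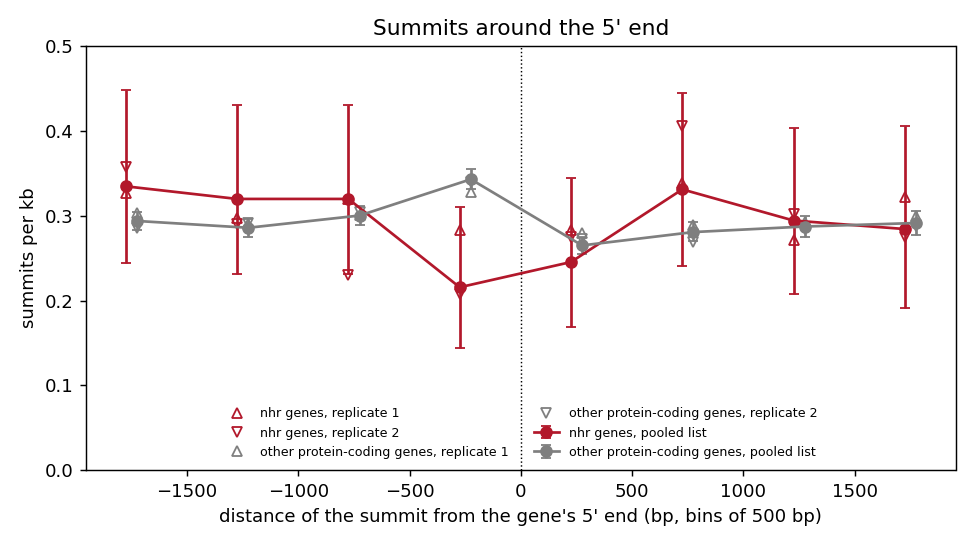
Summits per kb in bins of 500 bp around the 5′ end for receptor genes (red) and other protein-coding genes (grey), with filled circles for the pooled list, open triangles for the replicates and exact 95% Poisson bars for counting error. The red pooled point is lowest in the bin before the 5′ end, at 0.216 against 0.343 per kb, with replicate 1 higher at 0.283, and the replicate 2 point is highest from 500 to 1000 bp, at 0.406.

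The family is concentrated on chromosome V, which carries 167 of its members (62.1%, against 24.5% of other genes). There, 117 members had a pooled region (70.1%, against 71.0% of other genes of chromosome V), 29 had a top 5000 region (17.4%, against 18.3%) and 2 a top 1000 region (1.20%, against 3.40%). The density of summits was 0.257 per kb against 0.299. On the remaining chromosomes, 85 of 102 members had a pooled region (83.3%, interval 74.9 to 89.3%), against 72.3% of other genes there. The density was 0.376 per kb against 0.292. Median windows there were 5143.5 bp for members and 4155 bp for other genes, and the part of window length in that share was not tested. The 23 members on chromosome X stood highest, with a pooled region in 22 (95.7%, interval 79.0 to 99.2%, against 81.1% of other genes). A top 5000 region lay in 11 (47.8%, interval 29.2 to 67.04%, against 27.7% of other genes). These intervals overlapped those of chromosomes II, III and IV. Other genes also had their highest shares on X by both rules, so standing highest there was not particular to the family. Their windows were longer, with a median of 6483 bp against 4531.5 bp for other genes on X, and their density was 0.459 per kb against 0.355. Of the 23 members on chromosome I, 14 had a pooled region (60.9%, against 70.8%), and none had a top 5000 region, where other genes had 21.0%. The part of window length and of *nhr-27* in the values for X was not tested. By itself *nhr-27* had 0.468 per kb, close to the 0.459 of all 23 members on X. The density over the whole family without *nhr-27* was 0.303 per kb.

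**Figure D4:**
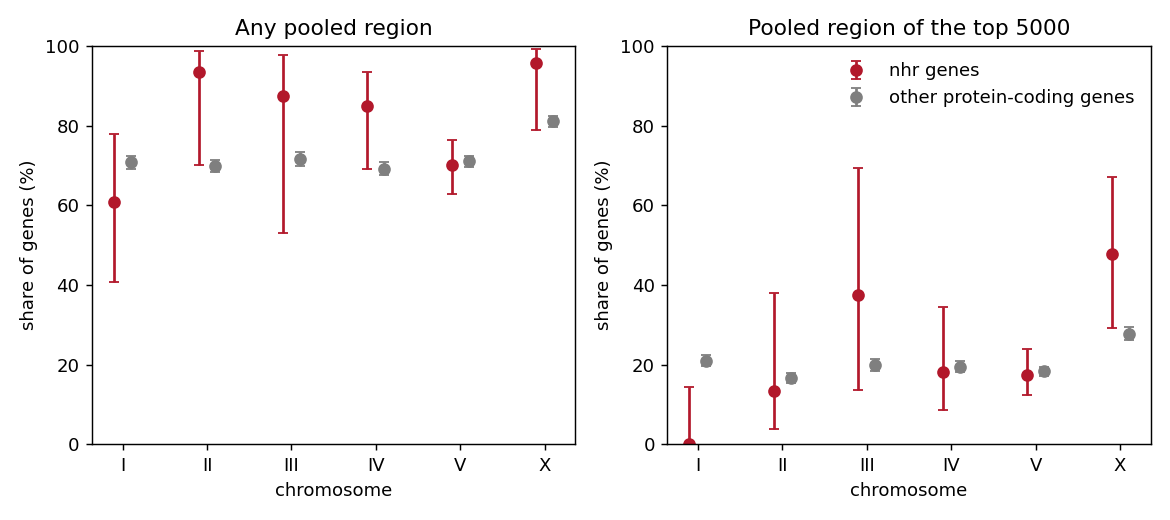
Share of receptor genes (red) and other protein-coding genes (grey) with any pooled region (left) and with a region of the top 5000 (right), by chromosome, with 95% Wilson intervals. Members on X lie highest in both panels, at 95.7% and 47.8%, and so do other genes on X, at 81.1% and 27.7%. Chromosome V, with most members, lies close to its other genes.

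Some neighbouring receptor genes shared summits. The 434 distinct regions made 461 pairs with receptor windows, and 24010 distinct regions made 30160 pairs with the windows of other genes. Each count covers sharing within its own set only, of 269 and of 19704 genes, so they cannot show whether sharing was particular to the family. Of the 434 distinct regions, 27 lay in 2 or more receptor windows and 112 also lay in the window of a gene outside the family. The strongest region was shared with another window for 78 of the 202 genes. The nearest 5′ end was the receptor gene's own for 146, that of another receptor gene for 14 and that of a gene outside the family for 42. Shared strongest regions and nearest 5′ ends were not counted for other genes, so these values have no background. In 23 receptor genes no list held any region (8.55%, against 11.9% of other genes), and these included *nhr-60*, a gene of seam cell development. Of the 23, 15 lay on chromosome V, near the share of the whole family there. In 149 genes all 3 lists held at least 1 region (55.4%, against 52.9%). At the window's limit, a region 1996 bp upstream of *nhr-291*, at pooled rank 11897, fell just inside, and a region 2003 bp upstream of *nhr-19*, at pooled rank 21625, just outside.

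Receptors conserved between worms and other animals had a pooled region in 10 of 10 cases, 4 of them in the top 5000 and none in the top 1000. Their median window of 7501.5 bp lay in the longest window class of the family. Other genes of that class had such regions in 89.0%, 33.2% and 8.83% of cases. With 10 genes, the counts cannot be set apart from these shares. *nhr-25*, the orthologue of fly Ftz-F1 and a regulator of moulting and vulval development, had an intronic region at pooled rank 4443, which ranked 15617 in replicate 1 and 3753 in replicate 2. *nhr-23*, the orthologue of fly DHR3 and a regulator of moulting, had an intronic region at pooled rank 6737. That region ranked 998 in replicate 1, while replicate 2 had no region in the *nhr-23* window. *nhr-67*, the orthologue of fly tailless and a regulator of the anchor cell, had its strongest region 1202 bp upstream at pooled rank 15129, with rank 4073 in replicate 1 and no match in replicate 2. *nhr-6*, the NR4A orthologue needed for the spermatheca, ranked 3609 in the pooled list and 3827 in replicate 1, with no match in replicate 2. *nhr-91*, related to germ cell nuclear factor, ranked 3564 in the pooled list, 17908 in replicate 1 and 2660 in replicate 2. *nhr-111* ranked 3505 with a region 78 bp upstream, found in replicate 2 at rank 2895 and not in replicate 1. *nhr-85*, the orthologue of fly E75, ranked 9831, *nhr-41*, the orthologue of fly DHR78, ranked 12243, and *nhr-48*, a relative of DAF-12, ranked 6196. *nhr-8*, also a relative of DAF-12 and known for xenobiotic resistance, was lowest at 26793. Of the 10 strongest regions, 6 were found in 1 replicate, those of *nhr-8*, *nhr-25* and *nhr-91* in both, and that of *nhr-48* in neither.

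Among 12 receptors of fat and nutrient metabolism, all 12 had a pooled region, 4 in the top 5000 and none in the top 1000. Other genes of the longest window class, which holds this group's median window, had 89.0%, 33.2% and 8.83%. With 12 genes, the counts cannot be set apart from these shares. *nhr-10* and *nhr-66*, described above, were the highest. *nhr-31*, known for its role in the excretory cell, had an intronic region at pooled rank 2609 that ranked 9849 in replicate 1 and 4437 in replicate 2. *nhr-68*, which acts with NHR-10 in the propionate shunt, ranked 4023 in the pooled list, with 18016 in replicate 1 and 10140 in replicate 2. *nhr-49*, a regulator of the fasting response and of fatty acid desaturation, ranked 5062, with its region at 11702 in replicate 1 and unmatched in replicate 2. *nhr-80*, a regulator of desaturases and germline-dependent longevity, ranked 23621, and *nhr-13*, which acts with NHR-49, ranked 11495. *nhr-62*, tied to longevity under dietary restriction, ranked 17068. *nhr-64*, *nhr-69*, *nhr-76* and *nhr-114* ranked 23113, 6403, 19334 and 22388. The *nhr-114* region was found in neither replicate.

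Of 6 receptors of stress, toxin and pathogen responses, which include *nhr-8* of the conserved group, 5 had a pooled region and none a top 5000 region. Other genes of the window class from 4309 to 5457 bp, which holds this group's median window, had 76.4% and 20.3%. With 6 genes, the counts cannot be set apart from these shares. *nhr-57*, a target of the hypoxia factor HIF-1, ranked 11600, *nhr-45* ranked 13365, *nhr-86*, a sensor of a bacterial metabolite, ranked 13901, and *nhr-14*, a regulator of iron uptake, ranked 18186. *nhr-176*, which acts in thiabendazole metabolism, had no pooled region and 1 replicate 1 region at rank 27980. Of 8 receptors of tissue development, 7 had a pooled region, 3 in the top 5000. Other genes of the longest window class, which holds this group's median window, had 89.0% and 33.2%. With 8 genes, the counts cannot be set apart from these shares. In this group *nhr-40*, a gene of muscle development, ranked 4122 in the pooled list, and its strongest replicate 2 region ranked 798. *nhr-2*, which acts in the embryo, ranked 5659, and *nhr-1* ranked 8323, with a stronger replicate 1 region at rank 656. The median percentile of the strongest region was 78.4 in the conserved group, 70.2 in the metabolic group, 53.7 in the stress group and 81.1 in the developmental group. The median windows of the last 3 groups were 6686.5, 5221 and 7331.5 bp, so all 4 role groups had longer windows than the family, and 4 genes of the developmental group are also in the conserved group.

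Genes that work with the receptors were read in the same windows, over 28 genes in 6 lists. Of the protein-coding genes outside the nhr- family, 72% had a pooled region, 20.1% a top 5000 region and 0.868% a thresholded peak. In each of the 6 lists, of 4 or 5 genes, the count with a pooled region cannot be set apart from that 72%. The 5 receptors not named nhr- all had a pooled region, 2 in the top 5000. *daf-12*, the dafachronic acid receptor, had top 1000 regions in both replicates, at ranks 314 and 787, in a window of 32968 bp, but its strongest pooled region ranked 2237. Of 5 genes of dafachronic acid metabolism 4 had a pooled region. *daf-9*, the cytochrome P450 that makes dafachronic acids, had a region 786 bp upstream at pooled rank 267, with 3785 in replicate 1 and 644 in replicate 2. All 4 co-regulators had a pooled region. *cbp-1*, a histone acetyltransferase, had the only thresholded peak of the 28 genes, 926 bp upstream, at rank 35 in the pooled list, 26 in replicate 1 and 79 in replicate 2. *din-1*, a co-repressor of DAF-12, had a region at pooled rank 393 that ranked 118 in replicate 2 and 26941 in replicate 1.

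Of 5 fatty acid genes regulated by NHR-49, 4 had a pooled region. *hacd-1*, a hydroxyacyl-CoA dehydrogenase, ranked 929 in the pooled list, 439 in replicate 2 and 23519 in replicate 1, and *fat-7*, a desaturase, ranked 1089, with 1587 in replicate 1 and 6834 in replicate 2. All 5 propionate shunt genes had a pooled region, with *acdh-1*, an acyl-CoA dehydrogenase, at pooled rank 706, 828 in replicate 1 and 5558 in replicate 2. The 4 moulting genes all had a pooled region, the highest at *nas-37*, an astacin protease, at pooled rank 1996. In all, 5 of the 28 genes had a pooled top 1000 region, with 0 to 2 in a list, where 4.75% of the protein-coding genes outside the nhr- family had such a region. The median window of a list ran from 3815 to 8756 bp, against 4020.5 bp for those genes, and the part of window length in the count was not tested. The lists were also chosen with earlier results of these data known, so the count is a description and no evidence of a difference from other genes.

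The patterns shown in capitals above were also counted within 100 bp of every summit, on both strands. AGGTCA was present at 28 of the 434 regions in receptor windows (6.45%), against 4.41% of 23898 regions in other genes' windows only and 4.57% of all 30000. GAGAGA was present at 50 (11.5%, against 10.5% of other regions), while 36.2% of the 163 thresholded peaks held it. TGATNNAT was present at 70 (16.1%, against 16.8%) and TAATTA at 49 (11.3%, against 10.5%). A match describes the letters near a summit and not a bound site.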

How the data were processed

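Peak lists from 2 biological replicates of LIN-39 eGFP ChIP-seq in whole L4 larvae were used, with size range 150 to 350 bp and replicate numbers per the labels. The text descriptions deposited with the lists say that each replicate was called from its alignment and a shared control, the pooled list from both, and the thresholded list from irreproducible discovery rates. The aligner and the peak caller were not given in the sources used here, nor were their versions. For each region, the authors deposited a signal value whose definition is likewise not stated and whose size differs between lists, so ranks within a list were taken. The deposited q column reached below 0 in the pooled list and was treated as a score, used only for an alternative ranking. No counts were given, so depth is unknown. The ce10 lists were not used here, for want of an annotation of that build.

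Coordinates are 1-based on ce11, with genes from Ensembl release 115. Sequences came from the RefSeq genome of the same build, after checking that no region ran past a chromosome end; that of the *nhr-230* region is not reported here. Regions whose summits lay within 200 bp and were each other's nearest counted as the same. No test was made, since there is 1 group; family values stand beside those of other genes. The members and gene lists were chosen with earlier results of these data known. Named genes are members with a thresholded peak, the 15 with the highest pooled rank, those in the top 1000 of both replicates and 4 role lists; a few others were chosen after their values were seen. Functions were tested on simulated data. The tools were scipy 1.17.1, numpy 2.4.6, pandas 2.3.3 and matplotlib 3.10.9 under Python 3.11.15.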

Additional observations from a re-analysis of the deposited data

How the results depend on the processing

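Assignment by position, unknown depth, a shared control and 1 group limit all values, and the cause of the differences below was not tested. No paired analysis was possible because the design has a single group and no test.

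With 1000 bp upstream, the share with a pooled region was 66.2% (62.8% of other genes), and with 5000 bp it was 89.2% (87.0%). It was 45.4% with upstream sequence only (48.6% of other genes, so below them) and 69.5% by nearest 5′ end within 5000 bp (65.7%). Over the 43 members whose windows overlap no other, it was 86.05%, against 76.2% of other genes with such windows. The share with a thresholded peak was 0% upstream only (0.624% of other genes) and 0% in those 43 (0.995%). The pooled top 1000 share was 0.372% upstream only (2.59% of other genes) and 0% in the 43 (7.10%). Ranked by the q column it was 4.46% (4.83% of other genes). For the top 500 in its place the share was 0.743% (2.48%), and for the top 5000 it was 19.0% (20.1%). The top 1000 share was 3.72% by nearest 5′ end (4.14% of other genes) and 4.09% with 5000 bp (7.27%). The size of the gap thus depended on the ranking column and on the assignment.

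Summits per kb were 0.312 with 1000 bp (0.294 in other genes), 0.311 with 5000 bp (0.292) and 0.297 upstream only (0.306). They were 0.329 in the 43 (0.324) and 0.303 without *nhr-27* (0.293). In either replicate's list they were 0.320, against 0.298 for other genes in replicate 1 and 0.291 in replicate 2. Both replicates held the same number of summits, so their spread of 0 gives no scale for these shifts. The median percentile of the strongest region was 75.7 with 5000 bp (73.0 in other genes) and 50.7 upstream only (56.4). It was 60.4 in the 43 (73.3) and 68.5 by the q column (68.3 in other genes). With 1 replicate left out it was 60.2 to 64.04 (66.5 to 67.1 in other genes). Genes with a top 1000 region in both replicates numbered 5 with 5000 bp, 1 upstream only, 0 in the 43, 14 for the top 5000 and 1 for the same region. The density in the 500 bp before the 5′ end was 0.208 to 0.283 with 1 replicate left out and 0.294 away from chromosome V. It stayed below other genes in its 4 alternatives, as did the thresholded and pooled top 1000 shares in theirs. The share with a top 1000 region in both replicates was below other genes except by nearest 5′ end, where it was 1.12% against 0.969%.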
